A study of Mus musculus with 12 samples.

Results

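The 9 genes described here encode the extracellular matrix that surrounds neurons as a perineuronal net: the link proteins Hapln1 and Hapln4, the lecticans Acan, Bcan, Ncan and Vcan, the tenascin Tnr, and the hyaluronan synthases Has2 and Has3. They were chosen by gene name with results of these libraries already known, so their values describe the libraries and their p-values are not independent evidence. All 9 had a row in the table, out of 40912 gene IDs, and 8 passed the filter on low counts, Has2 being the exception. RNA was counted in 12 libraries from the spinal cord of mice at postnatal day 21, and the title of the series sets motor neurons against all neurons. Ribosome-bound RNA was pulled down (TRAP) from the line Tg(Chat-EGFP/Rpl10a)DW167Htz, giving the group TRAP_Chat, which is set against RNA of the same line taken before the pulldown, PreIP_Chat. The line Tg(Snap25-EGFP/Rpl10a)JD362Jdd gave TRAP_Snap25 and its input PreIP_Snap25, and each of the 4 groups has 3 libraries. All groups carry a bacTRAP transgene, inputs included, so no group is free of the tagged ribosomal protein Rpl10a. The Chat transgene is driven by sequences of the gene for choline acetyltransferase, which other cholinergic neurons use besides motor neurons, and the Snap25 transgene by those of a gene used by neurons in general, motor neurons among them. The labels give no sex and do not say whether libraries came from separate animals or from pools, so a p-value here covers the spread between libraries, which may be technical.

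A perineuronal net is a lattice around the cell body and proximal dendrites. Hyaluronan, made at the plasma membrane by the Has enzymes, forms its backbone, lecticans bind hyaluronan with their N-terminal domain and carry chondroitin sulfate chains, link proteins clamp that bond, and tenascin-R ties the C-terminal ends of several lecticans together. In the spinal cord such nets surround many motor neurons, and glia make part of the matrix. An RNA that is low in the pulldown of a cell type therefore says nothing on whether the protein reaches the net around that cell.

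The lecticans each lie beside a link protein gene. In the GENCODE M21 annotation Hapln1 (ENSMUSG00000021613) and Vcan (ENSMUSG00000021614) are neighbouring protein-coding genes on chromosome 13, and Hapln4 (ENSMUSG00000007594) and Ncan (ENSMUSG00000002341) on chromosome 8. Bcan (ENSMUSG00000004892) neighbours Hapln2 on chromosome 3, and Acan (ENSMUSG00000030607) neighbours Hapln3 on chromosome 7. Tnr (ENSMUSG00000015829) is on chromosome 1, Has2 (ENSMUSG00000022367) on chromosome 15 and Has3 (ENSMUSG00000031910) on chromosome 8. The build of the counts is not given in the sources used here, so this annotation was used for neighbours and exon lengths only. The promoters below are those of Hapln1 and Vcan, neighbours whose RNA parted in the Snap25 pulldown, and of Ncan, which was low in both pulldowns as Vcan was. They are shown 5′ to 3′ on the gene's strand from RefSeq (GRCm38.p6), with 250 bases before the start and 50 after, and capitals mark matches, on either strand, to the TATA box (TATAAA), the CCAAT box (its letters as named), the GC box (GGGCGG), the E-box (CANNTG) or a homeodomain core (TAATTA). No match overlaps another in these 3 windows.
Hapln1, chr13:89540386-89540685, plus strand: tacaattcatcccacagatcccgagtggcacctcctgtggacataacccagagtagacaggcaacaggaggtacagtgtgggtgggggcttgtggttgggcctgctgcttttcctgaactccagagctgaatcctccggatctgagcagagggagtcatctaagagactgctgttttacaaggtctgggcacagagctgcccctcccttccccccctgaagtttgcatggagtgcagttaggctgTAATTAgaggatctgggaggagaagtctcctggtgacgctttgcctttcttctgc
Vcan, chr13:89742463-89742762, minus strand: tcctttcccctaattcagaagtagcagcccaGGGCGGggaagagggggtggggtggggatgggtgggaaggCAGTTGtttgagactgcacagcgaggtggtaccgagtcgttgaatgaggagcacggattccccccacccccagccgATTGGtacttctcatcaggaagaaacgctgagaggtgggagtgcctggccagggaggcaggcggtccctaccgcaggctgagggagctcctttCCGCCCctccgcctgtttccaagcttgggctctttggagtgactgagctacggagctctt
Ncan, chr8:70120795-70121094, minus strand: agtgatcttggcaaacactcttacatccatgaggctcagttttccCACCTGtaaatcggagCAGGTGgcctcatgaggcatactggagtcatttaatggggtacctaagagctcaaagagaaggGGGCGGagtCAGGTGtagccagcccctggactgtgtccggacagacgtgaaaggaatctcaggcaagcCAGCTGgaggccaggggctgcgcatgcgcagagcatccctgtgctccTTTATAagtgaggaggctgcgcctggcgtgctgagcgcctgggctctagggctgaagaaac
The Hapln1 window held 1 TAATTA, which 5.29% of 32851 mouse promoter windows of that length hold, and none of the other motifs. The Vcan window held 2 GC boxes, 1 CCAAT and 1 E-box, and the Ncan window 1 TATAAA, 1 GC box and 4 E-boxes. Among all windows 13.6% held TATAAA, 37.4% CCAAT, 35.7% a GC box and 72.3% an E-box. A match is a string of letters and not a measured site. The table holds windows for 6 of the 9 genes, Hapln4, Has2 and Has3 not among them.

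Total counts ran from 10149346 to 20521699 reads per library. Levels are counts-per-million (CPM) of the library size scaled by TMM, as mean ± SD over 3 libraries. The RNAs of the mitochondrial ribosome took 6.67% of the reads in TRAP_Chat library 1, which stood apart from the other pulldowns at 0.209% to 0.680%, and 23.2% to 40.7% in the inputs. Chat checked the labels, at 159 CPM in TRAP_Chat against 22.2 in PreIP_Chat. All 9 markers of cholinergic motor neurons passed as higher in that comparison, where 12.6% of all tested genes did. Markers of 4 non-neuronal classes were low in both pulldowns. Summed markers of oligodendrocytes stood at 29.4%, 10.8% and 15.6% of the mean input in TRAP_Chat libraries 1, 2 and 3, and at 11.6%, 9.24% and 28.5% in those of TRAP_Snap25, so TRAP_Snap25 library 3 was the high one there.

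Hapln1, the link protein that stabilises the bond of lecticans to hyaluronan in many tissues, was the member that separated the lines. TRAP_Chat libraries 1, 2 and 3 had 6.43, 2.27 and 4.63 CPM (104, 30 and 89 reads), against 21.6, 27.2 and 24.1 CPM in PreIP_Chat. TRAP_Snap25 libraries had 70.0, 36.3 and 66.5 CPM, against 26.9, 30.9 and 33.8 CPM in PreIP_Snap25. All TRAP_Chat libraries lay below every library of the other 3 groups, and all TRAP_Snap25 libraries lay above them. Hapln1 fell 5.42-fold in TRAP_Chat against PreIP_Chat, with a log2 fold change of -2.44 ± 0.35 (SE; edgeR quasi-likelihood test, adjusted p = 0.000182, by Benjamini-Hochberg over 15905 genes). In TRAP_Snap25 against PreIP_Snap25 the log2 fold change was 0.92 ± 0.33 and missed the threshold of 0.05 (edgeR adjusted p = 0.0531). That p lay below 0.05 in DESeq2 (0.0303), limma voom (0.0351) and several other settings, and without TRAP_Snap25 library 2, TRAP_Chat library 1 or TRAP_Chat library 2 (0.0267, 0.0393 and 0.0268). It stayed above 0.05 in 13 of 21 alternatives, at up to 0.171. Among those were the replicate number as a block (edgeR adjusted p = 0.0738) and the fit without TRAP_Snap25 library 3 (0.109).

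Hapln1 was 12.9-fold lower in TRAP_Chat than in TRAP_Snap25, at 4.44 ± 2.09 against 57.6 ± 18.5 CPM (log2 fold change -3.69 ± 0.37, edgeR adjusted p = 5.14e-05). Among 10159 genes that averaged 5 CPM or more over those pulldowns it had the 4th lowest fold change. The change from input to pulldown differed between the lines by -3.35 ± 0.48 on the log2 scale (edgeR adjusted p = 0.00551). Without TRAP_Chat library 1, the pulldown library with the most mitochondrial ribosomal RNA, the log2 fold change between the pulldowns was -4.04 and that against PreIP_Chat -2.80. In the inputs Hapln1 had 24.3 ± 2.82 CPM in PreIP_Chat and 30.5 ± 3.49 in PreIP_Snap25, a log2 fold change of -0.33 ± 0.32 that did not pass, and the libraries of both inputs overlapped.

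**Figure D1:**
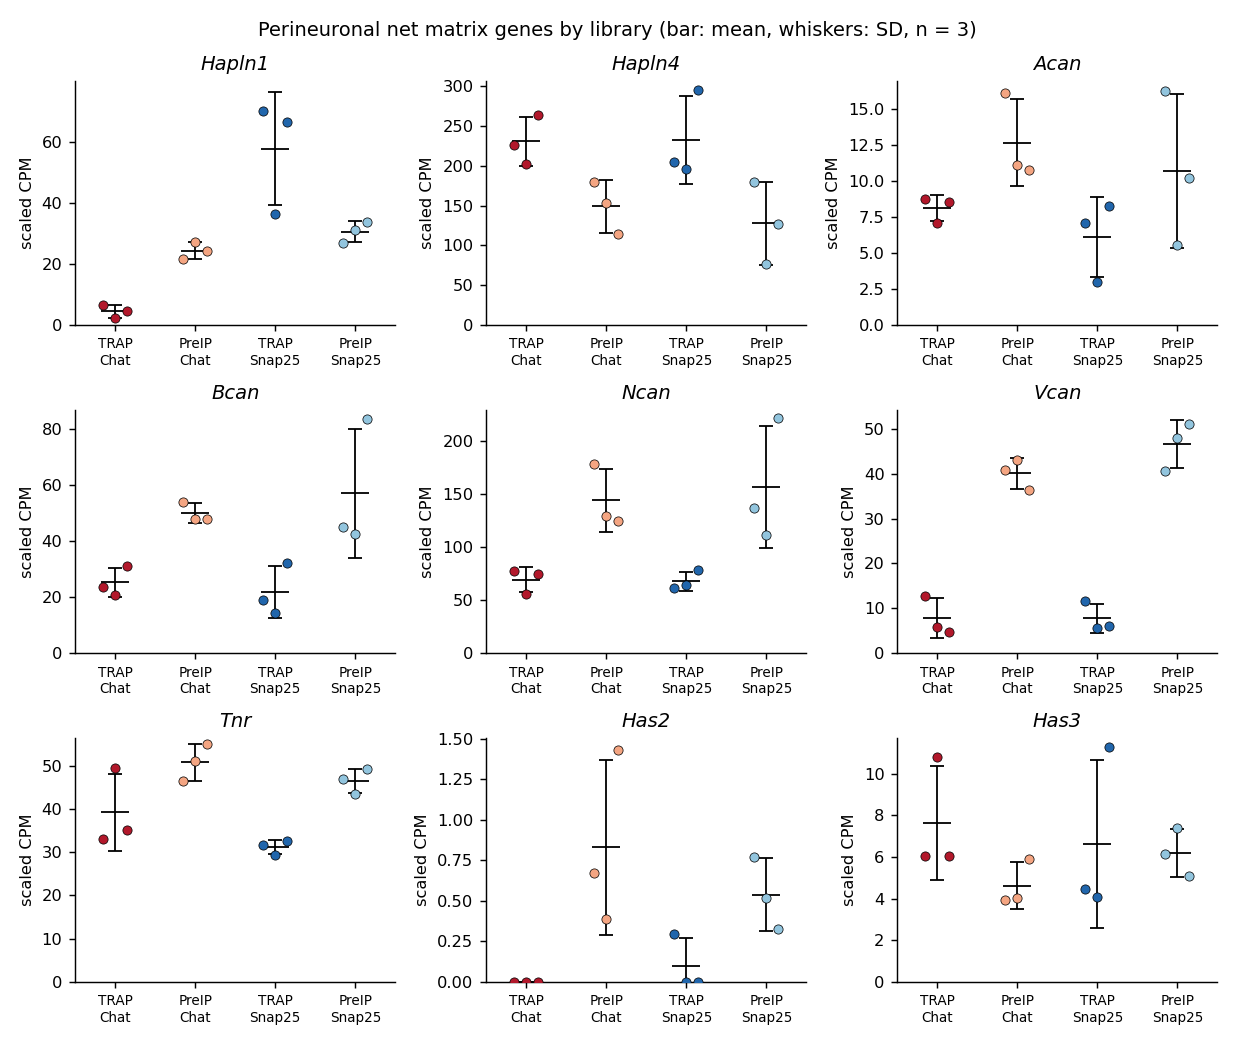
Scaled CPM of each of the 9 genes in the 4 groups, with 1 point per library, bars at the mean and whiskers for the SD (n = 3). Hapln1 lies at 4.44 CPM in TRAP_Chat and at 57.6 in TRAP_Snap25, whereas Vcan is low in both pulldowns, at 7.84 and 7.74 CPM.

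Hapln4, the link protein of brain and spinal cord that sits in nets and around synapses, had the highest mean level per kilobase of exon in each group. TRAP_Chat libraries 1, 2 and 3 had 226, 202 and 264 CPM, against 180, 153 and 114 CPM in PreIP_Chat. TRAP_Snap25 libraries had 205, 196 and 296 CPM, against 180, 76.1 and 127 CPM in PreIP_Snap25. In each line the pulldown libraries lay above all input libraries. The log2 fold change was 0.63 ± 0.29 in the Chat line, which did not pass (edgeR adjusted p = 0.119), and 0.86 ± 0.29 in the Snap25 line, a 1.82-fold rise (edgeR adjusted p = 0.0425). The Snap25 call was lost without any 1 of the libraries other than TRAP_Chat 1 and PreIP_Snap25 1 (adjusted p = 0.0509 to 0.194, the highest without PreIP_Snap25 library 2) and with only the Snap25 groups fitted (0.0948). In the Chat line adjusted p was 0.0396 with only the Chat groups fitted and 0.0283 with total counts as the scale.
Between the pulldowns Hapln4 stood at 231 ± 31.1 CPM in TRAP_Chat and 232 ± 55.1 in TRAP_Snap25, a log2 fold change of -0.01 ± 0.29. The difference between the lines was -0.23 ± 0.41 and did not pass. Within 1 library, Hapln1 reads per Hapln4 read came to 0.0112 to 0.0284 in TRAP_Chat, 0.120 to 0.211 in PreIP_Chat, 0.185 to 0.341 in TRAP_Snap25 and 0.150 to 0.406 in PreIP_Snap25. This ratio needs no scaling between libraries, and its TRAP_Chat range lies below the others.

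The link protein family outside the chosen genes holds Hapln2, which sits at nodes of Ranvier of myelinated axons and is made by oligodendrocytes, and Hapln3. Hapln2 fell in both pulldowns, to 8.82 CPM in TRAP_Chat against 43.2 in PreIP_Chat (log2 fold change -2.28 ± 0.53, edgeR adjusted p = 0.00484) and to 3.94 CPM in TRAP_Snap25 against 35.0 in PreIP_Snap25 (-3.20 ± 0.56, adjusted p = 0.00117). Per kilobase of exon, Hapln4 made up 92.2% ± 3.47 of the summed link protein level in TRAP_Chat, against 62.2% ± 6.79 in PreIP_Chat, and 83.7% ± 3.38 in TRAP_Snap25, against 60.2% ± 10.2 in PreIP_Snap25 (SD, n = 3 each). The Hapln1 share was 1.15% ± 0.49 in TRAP_Chat, against 6.87% ± 1.26 in PreIP_Chat, and 13.8% ± 3.95 in TRAP_Snap25, against 10.4% ± 3.25 in PreIP_Snap25. Shares sum to the whole within a library, so that of Hapln4 also moves with Hapln2.

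Among the lecticans, Ncan (neurocan), Bcan (brevican) and Vcan (versican) fell in both pulldowns. Vcan, the lectican with hyaluronan-rich matrix in many tissues, which oligodendrocyte precursors make in the nervous system, had 12.9, 5.82 and 4.84 CPM in TRAP_Chat libraries 1, 2 and 3, against 40.9, 43.0 and 36.3 in PreIP_Chat. It had 11.5, 5.69 and 6.001 CPM in TRAP_Snap25, against 40.6, 47.9 and 51.0 in PreIP_Snap25. The groups did not overlap in either line, and library 1 was the highest of each pulldown. Vcan fell 5.11-fold in the Chat line (log2 fold change -2.35 ± 0.37, edgeR adjusted p = 0.000335) and also in the Snap25 line (-2.58 ± 0.37, adjusted p = 0.000297). Without TRAP_Chat library 1 the log2 fold change in the Chat line was -2.92.

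Ncan, the lectican of the developing and juvenile nervous system, made by neurons and astrocytes, had 77.7, 56.0 and 74.8 CPM in TRAP_Chat libraries 1, 2 and 3, against 178, 130 and 125 CPM in PreIP_Chat. It had 61.3, 64.5 and 78.1 CPM in TRAP_Snap25, against 137, 111 and 221 CPM in PreIP_Snap25. Pulldown and input did not overlap in either line. Ncan fell 2.07-fold in the Chat line (log2 fold change -1.05 ± 0.27, edgeR adjusted p = 0.00861) and 2.30-fold in the Snap25 line (-1.20 ± 0.27, adjusted p = 0.00507). Without TRAP_Chat library 2 adjusted p in the Chat line was 0.0523.

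Bcan, a lectican of the adult nervous system made by glia and by some neurons, had 23.8, 20.9 and 31.2 CPM in TRAP_Chat libraries 1, 2 and 3, against 54.2, 47.9 and 48.0 CPM in PreIP_Chat. It had 19.0, 14.5 and 32.3 CPM in TRAP_Snap25, against 45.2, 42.5 and 83.6 CPM in PreIP_Snap25. Each pulldown lay below its input, and library 3 was the highest of each pulldown. Bcan fell 2.61-fold in the Snap25 line (log2 fold change -1.39 ± 0.32, edgeR adjusted p = 0.00668) and 1.97-fold in the Chat line (-0.98 ± 0.32, adjusted p = 0.0317). The Chat call was lost without TRAP_Chat library 1 or 2 or any 1 library of PreIP_Chat (adjusted p = 0.0668 to 0.124) and with total counts as the scale (-0.73, adjusted p = 0.0993).

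Acan (aggrecan), the lectican most used to mark nets, did not pass in any comparison. TRAP_Chat libraries 1, 2 and 3 had 8.71, 7.10 and 8.54 CPM, against 16.1, 11.1 and 10.7 CPM in PreIP_Chat. TRAP_Snap25 libraries had 7.05, 2.96 and 8.24 CPM, against 16.3, 5.57 and 10.2 CPM in PreIP_Snap25. The Chat groups did not overlap. The Snap25 groups did, although each pulldown library lay below the input library with its own number. Log2 fold changes were -0.64 ± 0.43 in the Chat line and -0.82 ± 0.43 in the Snap25 line (edgeR adjusted p = 0.287 and 0.186). Each of these SEs leaves a fall as large as that of Ncan within reach, so the data do not show that Acan was level.

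**Figure D2:**
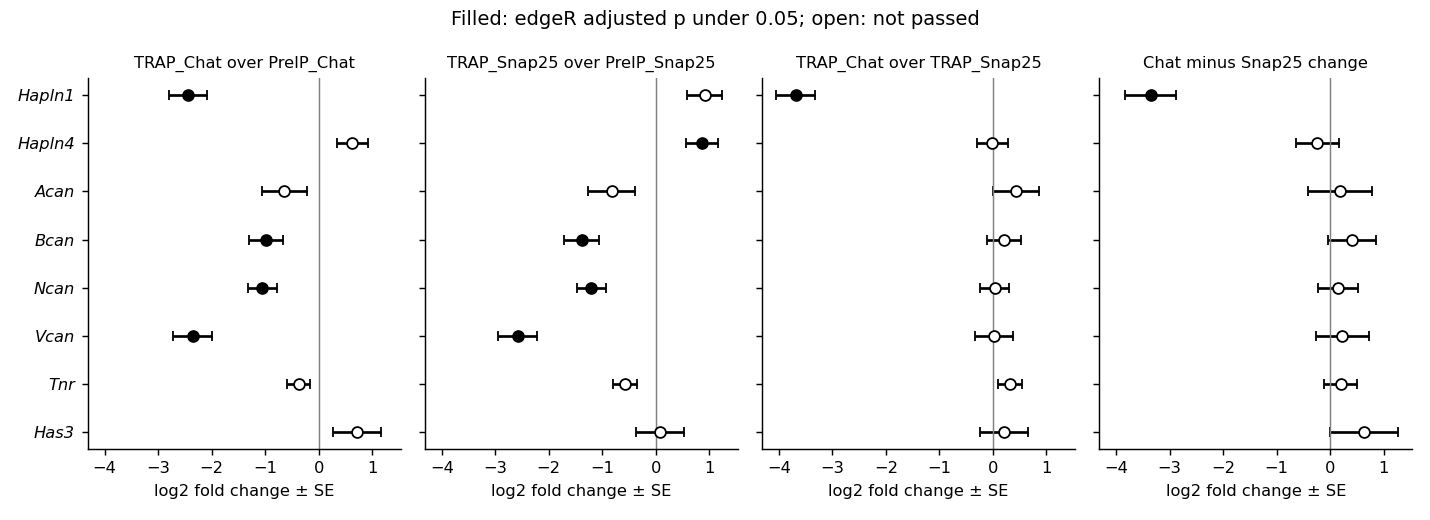
Log2 fold changes with their SE for the 8 tested genes in each comparison, where filled points passed edgeR adjusted p under 0.05 and open points did not. Vcan, Ncan and Bcan lie left of 0 in both pulldowns against their inputs, and between the pulldowns Hapln1 lies at -3.69 while the other 7 genes did not pass.

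Tnr (tenascin-R), which oligodendrocytes and some neurons make, had 33.2, 49.6 and 35.1 CPM in TRAP_Chat libraries 1, 2 and 3, against 46.5, 51.2 and 55.1 CPM in PreIP_Chat. It had 31.8, 29.5 and 32.6 CPM in TRAP_Snap25, against 46.9, 43.5 and 49.2 CPM in PreIP_Snap25. The Chat groups overlapped through TRAP_Chat library 2, which lay below the input library with its own number as the others did, and the Snap25 groups did not overlap. Log2 fold changes were -0.37 ± 0.22 in the Chat line (edgeR adjusted p = 0.227) and -0.57 ± 0.22 in the Snap25 line (adjusted p = 0.0769, and 0.0465 in DESeq2). Of its exon bases 3.44% lie opposite an antisense gene, and reads there cannot be told apart while the strand setting of the counts is unknown.

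Has2, a hyaluronan synthase with a major part in development, was near the detection limit. TRAP_Chat had no read in any library, against 11, 7 and 27 reads in PreIP_Chat. TRAP_Snap25 had 4, 0 and 0 reads, against 14, 8 and 5 in PreIP_Snap25. The level in PreIP_Chat was 13.7 times a floor of 3 counts over the TRAP_Chat group. For the fall from PreIP_Chat to TRAP_Chat the exact 95% interval, which covers counting error only, starts at 10.7-fold. PreIP_Chat library 3 held 27 of the 45 input reads, and without it the PreIP_Chat level was 8.47 times the floor. In TRAP_Snap25 Has2 was 5.70-fold lower than in PreIP_Snap25, with a 95% exact interval of 1.99 to 22.4 that covers counting error only. An opposite-strand gene, Has2os, overlaps 4.30% of its exon bases.
Has3, another hyaluronan synthase, had 6.06, 10.8 and 6.04 CPM in TRAP_Chat libraries 1, 2 and 3, against 3.91, 4.04 and 5.92 CPM in PreIP_Chat. It had 4.48, 4.07 and 11.3 CPM in TRAP_Snap25, against 6.16, 7.38 and 5.08 CPM in PreIP_Snap25. The Chat groups did not overlap, and the Snap25 groups did, with TRAP_Snap25 library 3 highest. Log2 fold changes were 0.72 ± 0.45 in the Chat line and 0.08 ± 0.45 in the Snap25 line (edgeR adjusted p = 0.255 and 0.925), and without TRAP_Snap25 library 3 that of the Snap25 line was -0.55. Chtf8 lies on the opposite strand and shares 5.52% of the exon bases of Has3.

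Counted together, 0 of the 8 tested genes were higher and 4 were lower in TRAP_Chat against PreIP_Chat (Hapln1, Bcan, Ncan and Vcan), where 12.6% of all tested genes were higher and 14.3% lower. None was higher by DESeq2 either, and 1, Hapln4, was at an unadjusted edgeR threshold of 0.05. At that threshold 6205 of all 15905 tested genes passed, both directions together. Without TRAP_Chat library 2 the genes that passed were 2, Hapln1 and Vcan, while the log2 fold change was -0.87 for Ncan and -0.81 for Bcan (edgeR adjusted p = 0.0523 and 0.124). In TRAP_Snap25 against PreIP_Snap25 1 was higher (Hapln4) and 3 were lower (Bcan, Ncan and Vcan), where 9.69% of all tested genes were higher and 12.7% lower. Median log2 fold changes of the 8 were -0.81 and -0.70, beside -0.06 and -0.00 over all genes. Bcan, Ncan and Vcan passed as lower in both lines, and the difference between the lines did not pass for any of them (0.40 ± 0.45, 0.15 ± 0.37 and 0.23 ± 0.50).

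Between the pulldowns, TRAP_Chat against TRAP_Snap25, 1 of the 8 genes passed, Hapln1, where 3.97% of all tested genes were higher and 2.77% lower. For the others the log2 fold changes were 0.43 ± 0.43 for Acan, 0.21 ± 0.32 for Bcan, 0.03 ± 0.27 for Ncan, 0.02 ± 0.36 for Vcan, 0.33 ± 0.22 for Tnr and 0.21 ± 0.45 for Has3. Tnr stood at 39.3 ± 8.95 CPM in TRAP_Chat and 31.3 ± 1.65 in TRAP_Snap25 (edgeR adjusted p = 0.433). Its libraries parted narrowly, the nearest being TRAP_Chat library 1 at 33.2 CPM and TRAP_Snap25 library 3 at 32.6 CPM. For the difference between the lines 1 of the 8 passed, again Hapln1, where 0.604% of all tested genes were higher and 0.44% lower. Between the inputs, PreIP_Chat against PreIP_Snap25, 0 of the 8 passed and 0% of all tested genes did by edgeR, with 133 genes at an unadjusted p under 0.05 and 1 gene called by DESeq2. Libraries of the inputs overlapped for all 8. The share of all tested genes whose libraries overlap was not counted for any comparison.

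Compared per kilobase of exon, the levels kept much of their order from group to group. Hapln4 was first in each by its mean, at 58.8 ± 7.91 CPM per kilobase in TRAP_Chat, against 38.0 ± 8.46 in PreIP_Chat, and at 59.2 ± 14.1 in TRAP_Snap25, against 32.5 ± 13.2 in PreIP_Snap25. In PreIP_Snap25 its libraries overlapped those of Ncan, at 19.4 to 45.8 against 15.5 to 30.8 CPM per kilobase. Ncan came second in TRAP_Chat at 9.66 ± 1.64 CPM per kilobase, then Bcan at 6.23 ± 1.31 and Tnr at 3.05 ± 0.70, with no overlap between these neighbours. Has3, Acan, Hapln1 and Vcan followed at 1.20, 1.09, 0.753 and 0.542 CPM per kilobase, and each overlapped the next. In TRAP_Snap25 Hapln1 was second at 9.76 ± 3.14 CPM per kilobase and overlapped Ncan at 9.45 ± 1.24, with Bcan at 5.40 ± 2.28 and Tnr at 2.43 ± 0.13 after them. Hapln1 was 4th in both inputs, at 4.11 ± 0.48 CPM per kilobase in PreIP_Chat and 5.17 ± 0.59 in PreIP_Snap25. Has2 was last in every group.

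**Figure D3:**
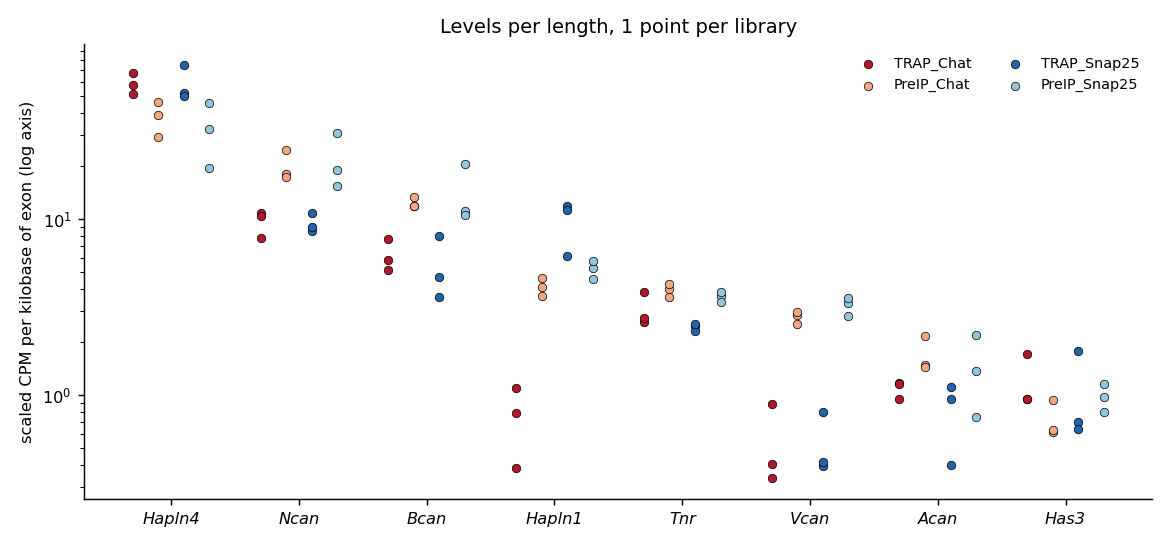
Scaled CPM per kilobase of exon on a log axis, with 1 point per library and genes along the axis, where libraries at 0 are not drawn. Hapln4 has the highest mean in all groups, though its libraries overlap those of Ncan in PreIP_Snap25. The group means of Hapln1 are 0.753 in TRAP_Chat and 9.76 in TRAP_Snap25.

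Ratios of 2 genes in 1 library showed the same parting without any scaling. Hapln1 reads per read of its neighbour Vcan came to 0.390 to 0.957 in TRAP_Chat, 0.527 to 0.663 in PreIP_Chat, 6.07 to 11.1 in TRAP_Snap25 and 0.645 to 0.663 in PreIP_Snap25. The TRAP_Snap25 libraries stood far above the rest, and the other 3 groups overlapped one another. Ncan reads per read of its neighbour Hapln4 came to 0.276 to 0.344 in TRAP_Chat, against 0.845 to 1.09 in PreIP_Chat, and to 0.264 to 0.329 in TRAP_Snap25, against 0.763 to 1.74 in PreIP_Snap25. Here both pulldowns lay below both inputs and overlapped each other. Acan reads per Hapln4 read were 0.0323 to 0.0386 in TRAP_Chat, against 0.0722 to 0.0940 in PreIP_Chat, and 0.0151 to 0.0344 in TRAP_Snap25, against 0.0732 to 0.0905 in PreIP_Snap25. Bcan reads per Ncan read overlapped in all 4 groups, at 0.306 to 0.418 in TRAP_Chat, 0.304 to 0.385 in PreIP_Chat, 0.225 to 0.414 in TRAP_Snap25 and 0.330 to 0.382 in PreIP_Snap25.

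**Figure D4:**
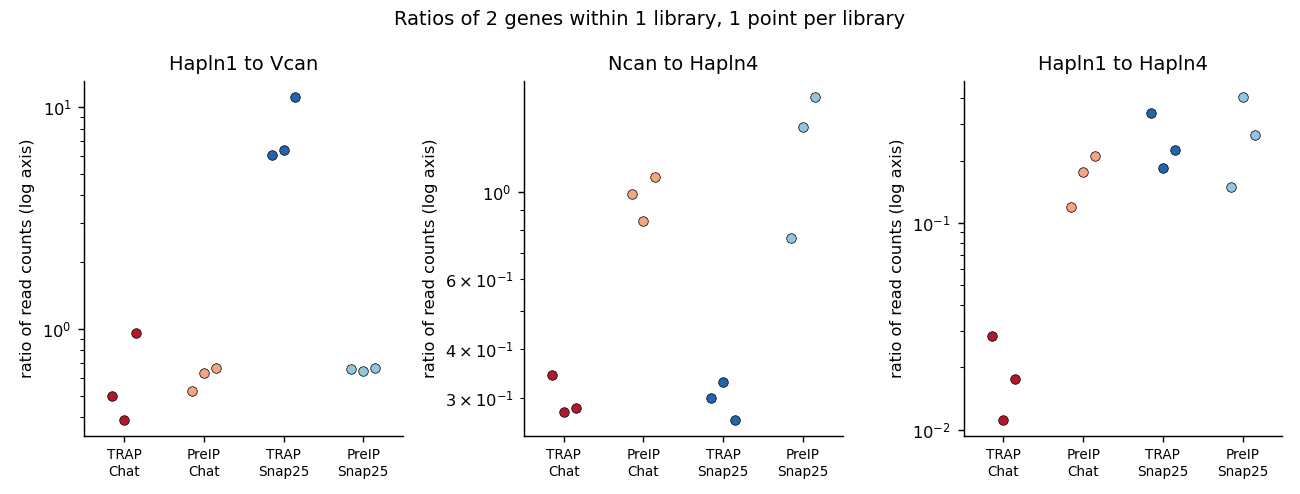
Ratios of read counts of 2 genes within a library, on log axes, with 1 point per library in the 4 groups. The ratio of Hapln1 to Vcan lies at 6.07 or above in TRAP_Snap25 and at 0.957 or below elsewhere, and the ratio of Ncan to Hapln4 lies at 0.344 or below in both pulldowns.

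Within the lecticans, per kilobase, Ncan held 55.1% ± 2.35 of the summed level in TRAP_Chat, against 54.2% ± 2.91 in PreIP_Chat, and 59.3% ± 7.18 in TRAP_Snap25, against 53.5% ± 1.69 in PreIP_Snap25. Bcan held 32.4% to 35.5% as a mean in the 4 groups. The Vcan share was 3.09% ± 1.54 in TRAP_Chat, against 7.61% ± 1.06 in PreIP_Chat, and 3.45% ± 1.70 in TRAP_Snap25, against 8.44% ± 2.42 in PreIP_Snap25. Acan made up 6.25% ± 0.41 in TRAP_Chat, against 4.56% ± 0.39 in PreIP_Chat, and 4.91% ± 1.73 in TRAP_Snap25, against 3.71% ± 2.16 in PreIP_Snap25 (SD, n = 3 each).

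The members were next set beside markers of the cells that the tissue holds, since neither pulldown nor input shows which cells a read came from. All 9 oligodendrocyte, all 8 oligodendrocyte precursor and all 9 astrocyte markers passed as lower in each pulldown against its input, and 6 and 7 of 8 microglial markers did in the Chat and Snap25 lines. Summed astrocyte markers ran at 191 to 392 CPM in TRAP_Chat, against 1453 to 1708 in PreIP_Chat, and at 162 to 356 CPM in TRAP_Snap25, against 1407 to 1810 in PreIP_Snap25. Summed precursor markers ran at 91.3 to 262 CPM in TRAP_Chat, against 800 to 1042 in PreIP_Chat, and at 86.5 to 260 CPM in TRAP_Snap25, against 762 to 1013 in PreIP_Snap25. No marker of these 3 classes was at 0 in any library. Of 10 markers of meningeal fibroblasts and vessels 6 were lower in the Chat line and 7 in the Snap25 line, and of 8 genes of neurons in general 3 and 1 were higher. Over all tested genes 12.6% were higher and 14.3% lower in the Chat line, and 9.69% and 12.7% in the Snap25 line. The 1 of 8 neuronal genes in the Snap25 line is thus near the share of all genes. Vcan in the pulldowns came to 32.1%, 14.5% and 12.1% of its mean input level in TRAP_Chat libraries 1, 2 and 3 and to 24.8%, 12.2% and 12.9% in those of TRAP_Snap25. Summed precursor markers came to 28.5%, 9.91% and 14.8% in TRAP_Chat and to 10.8%, 9.49% and 28.5% in TRAP_Snap25, so Vcan stood above them in library 1 of both pulldowns and below them in library 3. Ncan stood above the range of the precursor markers in every pulldown library, at 53.9%, 38.8% and 51.9% in TRAP_Chat and 39.2%, 41.2% and 49.9% in TRAP_Snap25. Bcan stood at 47.6%, 41.8% and 62.5% in TRAP_Chat and at 33.2%, 25.4% and 56.7% in TRAP_Snap25. Its TRAP_Snap25 range overlapped that of the precursor markers, but within each pulldown library Bcan stood above them. The part of glial RNA in these falls was not tested.

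Markers of inhibitory neurons were low in TRAP_Chat, as Hapln1 was, and so were glutamatergic markers by their sum. All 7 inhibitory markers passed as lower in TRAP_Chat against PreIP_Chat, and 6 of 7 did in TRAP_Chat against TRAP_Snap25. As many passed in the test of the lines against each other, where 0.44% of all tested genes were lower. In TRAP_Snap25 against PreIP_Snap25 1 of 7 was lower and 0 were higher, beside 12.7% and 9.69% of all tested genes. The summed level of the inhibitory markers was 145 to 302 CPM in TRAP_Chat, against 930 to 1028 in PreIP_Chat. It was 967 to 1297 CPM in TRAP_Snap25, against 833 to 1038 in PreIP_Snap25, with no marker at 0. Relative to the mean input, Hapln1 stood at 26.5%, 9.34% and 19.1% in TRAP_Chat libraries 1, 2 and 3, and these markers at 26.8%, 14.8% and 30.9%. In TRAP_Snap25 Hapln1 stood at 229%, 119% and 218%, and the markers at 142%, 106% and 125%. Summed glutamatergic markers came to 32.1%, 41.5% and 32.6% in TRAP_Chat and to 181%, 154% and 131% in TRAP_Snap25. The part of the makeup of neurons in the Hapln1 result was not tested. On a list of genes of neurons that often carry nets, Pvalb, which encodes parvalbumin, was 9.02-fold lower in TRAP_Chat than in TRAP_Snap25, at 36.8 against 332 CPM (log2 fold change -3.17 ± 0.36, edgeR adjusted p = 0.0001). Of the 5 genes of that list 2 passed as lower between the pulldowns, Pvalb and the potassium channel gene Kcnc1 (-0.84 ± 0.23, edgeR adjusted p = 0.0362). The other 3 did not pass, and the median log2 fold change of the 5 was -0.04. Over all tested genes 3.97% were higher and 2.77% lower there. In TRAP_Chat against PreIP_Chat 1 of the 5 was higher and 2 were lower, beside 12.6% and 14.3% of all tested genes. Summed levels of the list ran at 78.6% to 110% of the mean input in TRAP_Chat.

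**Figure D5:**
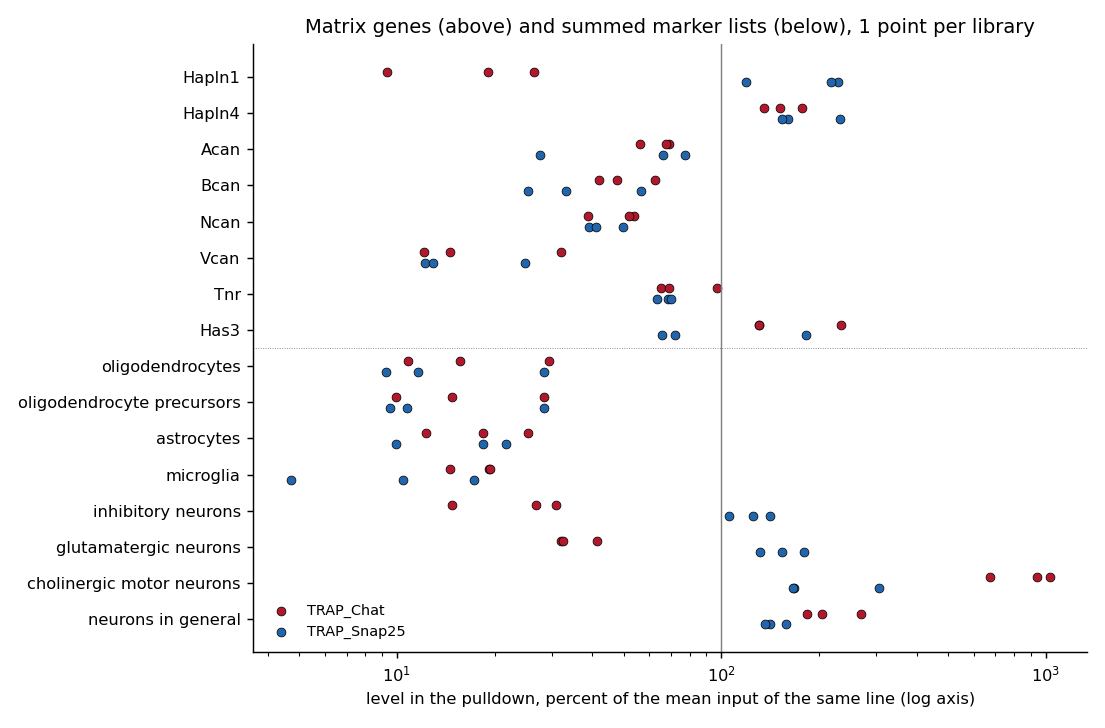
Level in each pulldown library as a percentage of the mean input of the same line, on a log axis, for the matrix genes and below them for summed marker lists. Hapln1 lies at 9.34% to 26.5% in TRAP_Chat and at 119% to 229% in TRAP_Snap25. Vcan lies at 12.1% to 32.1% in TRAP_Chat and at 12.2% to 24.8% in TRAP_Snap25.

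Across the 12 libraries, the pattern of Hapln1 (log2 CPM) was most like those of Nrn1, which encodes neuritin (Pearson r = 0.986), Tmem191c (0.956) and Slc6a5, the neuronal glycine transporter (0.954), out of 9955 genes compared. Nearest to Vcan were Aqp4, the water channel of astrocytes (0.981), Lcorl (0.977) and Ugt8a, an enzyme of myelin lipid synthesis (0.975). Bcan was like Bfsp2 (0.983) and Slc6a11, a GABA transporter (0.973), and nearest to Ncan were Trf, which encodes transferrin (0.964), Agt (0.958) and Tspan15 (0.958). Hapln4 was most like Rnf208 (0.962), Ptpn5 (0.955) and Pwwp2b (0.952). The values for Acan, Tnr and Has3 reached 0.922, 0.924 and 0.847. Among the members themselves Bcan and Ncan (0.941), Ncan and Vcan (0.873) and Bcan and Vcan (0.807) ran together, and Hapln4 ran against Vcan (-0.763), whereas Hapln1 and Vcan gave 0.339. The points are libraries of 4 groups, so these values mostly restate the differences between groups.

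Genes that build, cut or bind the same matrix were counted from lists written by hand with the results of these libraries known. Of 20 tested genes of chondroitin sulfate synthesis and sulfation, 1 was higher and 2 were lower in TRAP_Chat against PreIP_Chat, and 3 higher and 2 lower in TRAP_Snap25 against PreIP_Snap25, with median log2 fold changes of 0.21 and -0.01. Over all tested genes 12.6% were higher and 14.3% lower in the Chat line, and 9.69% higher and 12.7% lower in the Snap25 line, the background for the lists that follow too. Chst12, a sulfotransferase, rose to 25.1 CPM in TRAP_Chat against 9.27 in PreIP_Chat (log2 fold change 1.44 ± 0.36, edgeR adjusted p = 0.00755). Chst3, another sulfotransferase of the chain, fell to 3.65 CPM in TRAP_Chat against 19.0 in PreIP_Chat (-2.36 ± 0.64, adjusted p = 0.0128), and to 2.92 CPM in TRAP_Snap25 against 15.6 in PreIP_Snap25 (-2.43 ± 0.66, adjusted p = 0.0148). In the Snap25 line B3galt6 (1.70 ± 0.59, adjusted p = 0.0486), which extends the linker that joins chain and protein, and Chpf (1.05 ± 0.35, adjusted p = 0.0432), which takes part in chain polymerisation, rose.

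Of 13 tested receptors and ligands of chondroitin sulfate or hyaluronan, 1 was higher and 4 were lower in TRAP_Chat against PreIP_Chat, 1 higher and 3 lower in TRAP_Snap25 against PreIP_Snap25, and 1 higher and 1 lower in TRAP_Chat against TRAP_Snap25, where 3.97% and 2.77% of all tested genes were. Sema3a, a guidance protein that nets bind, had 41.3 CPM in TRAP_Chat against 11.9 in PreIP_Chat (log2 fold change 1.79 ± 0.28, edgeR adjusted p = 0.000326) and was also higher than in TRAP_Snap25, at 20.1 CPM (1.04 ± 0.27, adjusted p = 0.0289). Nptx1, a neuronal pentraxin, had 19.6 CPM in TRAP_Chat against 93.6 in PreIP_Chat (-2.25 ± 0.33, adjusted p = 0.000222) and against 76.0 in TRAP_Snap25 (-1.95 ± 0.33, adjusted p = 0.00177). It was the 1 gene of the list that passed in the difference between the lines (-2.06 ± 0.45, adjusted p = 0.0379). Ptprz1, a receptor phosphatase and itself a chondroitin sulfate proteoglycan of glia, fell in both lines (-1.47 ± 0.38 in the Chat line and -1.93 ± 0.39 in the Snap25 line). Rtn4r, the Nogo receptor, rose in the Snap25 line (1.36 ± 0.40, adjusted p = 0.0223).

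Of 20 tested proteases, inhibitors and hyaluronidases, 1 was higher and 5 were lower in TRAP_Chat against PreIP_Chat, and 1 higher and 7 lower in TRAP_Snap25 against PreIP_Snap25. Adamts4, a protease that cuts lecticans, fell to 14.7 CPM in TRAP_Chat against 108 in PreIP_Chat (log2 fold change -2.88 ± 0.48, edgeR adjusted p = 0.000532) and to 15.05 CPM in TRAP_Snap25 against 111 in PreIP_Snap25 (-2.90 ± 0.48, adjusted p = 0.000799). Mmp9, a matrix metalloprotease, rose to 30.5 CPM in TRAP_Chat against 6.42 in PreIP_Chat (2.25 ± 0.46, adjusted p = 0.0022). Timp3, an inhibitor of such enzymes, was the 1 gene of the list that differed between the pulldowns, at 19.4 CPM in TRAP_Chat and 8.32 in TRAP_Snap25 (1.227 ± 0.284, adjusted p = 0.0155). Of the 5 other chondroitin sulfate proteoglycans tested, 4 were lower in each pulldown, and Cspg5 was the exception (-0.08 ± 0.27 in the Chat line and 0.28 ± 0.27 in the Snap25 line). Of 5 other link proteins, synthases and tenascins tested 1 was lower in each pulldown, Hapln2 as given above.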

How the data were processed

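The authors deposited raw read counts per Ensembl gene for 12 libraries, whole numbers. The tools named in the submitters' processing notes are STAR and HTSeq. Their versions and strand setting, the build and the gene models are not given in the sources used. RNA was amplified before sequencing per the labels' protocols, without molecular identifiers that they name, so read counts carry amplification error. Of 41736 lines 824 repeated another line and were dropped. Groups come from the sample titles.

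Genes with low counts were removed with filterByExpr by group (minimum count 10), libraries were scaled by TMM, and 1 mean per group was fitted to all 12 libraries with edgeR 4.0.16 in R 4.3.3 (glmQLFit, glmQLFTest). P-values are two-sided, adjusted by Benjamini-Hochberg over 15905 genes, with a threshold of 0.05. Fold changes on the log2 scale are from that fit. A floor of 3 counts was used for Has2. Likeness used log2 CPM with a prior count of 2. The analysis was tested on simulated counts. Lengths and neighbours are from GENCODE M21, promoters from RefSeq.

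The members, lists and tests were chosen with earlier results of these data known. Genes named are the 9 members, the 3 genes most like each in pattern, and from each wider list up to 2 per direction of largest change past the threshold that average 5 CPM or more. One of these genes is not reported here. Pvalb, Kcnc1, Chat and Cspg5 were named outside that rule after their values were seen.

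Alternatives were RLE scaling, DESeq2 1.42.0, limma 3.58.1 (voom), no filter, a minimum of 1 CPM in 3 libraries, fitting each pair of groups alone, the replicate number as a block, and each library left out. Total counts as the scale and a table without mitochondrial ribosomal RNA were added after the data were seen. Leaving out input libraries when Has2 was set against the floor was also added then.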

Additional observations from a re-analysis of the deposited data

Results flagged for a closer look

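Hapln1 was flagged because the change from input to pulldown differed between the lines, by a test of that difference (log2 -3.35 ± 0.48, SE, edgeR adjusted p = 0.00551). Its level was 4.44 ± 2.09 CPM in TRAP_Chat, against 24.3 ± 2.82 in PreIP_Chat, and 57.6 ± 18.5 CPM in TRAP_Snap25, against 30.5 ± 3.49 in PreIP_Snap25 (SD, n = 3 each). All 3 TRAP_Chat libraries lay below all PreIP_Chat libraries, and all 3 TRAP_Snap25 libraries above all PreIP_Snap25 libraries. Over 20 other settings and left-out libraries the difference ran from -3.71 to -3.00, with adjusted p up to 0.0251.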

How the results depend on the processing

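Over all members, comparisons and alternatives, 771 of 832 values kept their direction and side of the threshold, 18 lost a call, 11 gained one and 32 changed sign, all of the last without a call. Hapln1 kept its call in all alternatives run for TRAP_Chat against PreIP_Chat (log2 fold change -2.80 to -2.09), TRAP_Chat against TRAP_Snap25 (-4.04 to -3.35) and the difference between the lines. With 1 library left out, the number of members past the threshold ran from 2 to 4 in TRAP_Chat against PreIP_Chat and from 3 to 5 in TRAP_Snap25 against PreIP_Snap25.

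Values that changed sign were, in TRAP_Snap25 against PreIP_Snap25, Has3 at -0.15 with limma voom, and in TRAP_Chat against TRAP_Snap25 Hapln4 at 0.017 and Vcan at -0.046 with limma voom, Vcan at -0.0032 with only those groups fitted, and, with total counts as the scale, Vcan at -0.057 and Ncan at -0.0011. The cause was not tested. With 1 library left out, ranges that crossed 0 were -0.55 to 0.33 for Has3 in TRAP_Snap25 against PreIP_Snap25. In TRAP_Chat against TRAP_Snap25 they were -0.12 to 0.20 for Hapln4, -0.052 to 0.20 for Ncan, -0.54 to 0.42 for Vcan, -0.087 to 0.83 for Has3 and -0.012 to 0.60 for Bcan. For the difference between the lines they were -0.32 to 0.64 for Vcan, -0.25 to 0.50 for Acan, -0.56 to 0.031 for Hapln4 and -0.18 to 0.35 for Ncan. Between the inputs they were -0.040 to 0.56 for Hapln4, -0.070 to 0.68 for Acan, -0.36 to 0.19 for Bcan and -0.31 to 0.21 for Ncan.

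With the replicate block the members past the threshold were 4, 4, 1, 1 and 0 in the 5 comparisons, as without it, and Hapln1 had -2.52, 0.87, -3.70, -3.39 and -0.32. Under the block Has3 stood at -0.065 in TRAP_Snap25 against PreIP_Snap25 and Vcan at -0.0087 between the pulldowns. The block moved the genes past the threshold to 4431, 3663, 920, 206 and 0, beside 4273, 3558, 1073, 166 and 0. Same-numbered libraries deviated together weakly (pulldown and input r = 0.06, 0.10 and 0.13 in the Chat line, -0.04, 0.17 and 0.15 in the Snap25 line). With 3 libraries per group such values cannot decide whether the numbers pair libraries. The labels do not state it, so the main fit has no block. The descriptions of a pulldown and an input with the same number in a line share a suffix of unstated meaning. The block for pulldown against input, and for the difference between the lines, was set by line and number, so it follows that suffix. Under the block by line and number Acan in the Snap25 line had adjusted p = 0.119 and Tnr in the Chat line 0.211 by edgeR. Between the pulldowns and between the inputs the block was the number alone. There it joins libraries of unlike suffix, so it is no check on pairing. In the Chat line each library correlated best with its own number, in the Snap25 line not.

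Counts over all genes moved by more than 1.5 times with only the groups compared (2362 in TRAP_Snap25 against PreIP_Snap25 and 382 between the pulldowns), with DESeq2 (1772 between the pulldowns, 501 for the difference and 1 between the inputs) and with no filter (1761, 453 and 7). Left-out libraries gave 2738 to 5145, 1973 to 4009, 671 to 1535, 52 to 249 and 0 genes. Total counts as the scale moved the median of all genes to 0.17 in the Chat line and 0.38 in the Snap25 line. Depth limits Has2, at 45 reads or fewer per group. With 1 PreIP_Chat library left out its PreIP_Chat level ran from 8.47 to 17.5 times the floor for TRAP_Chat.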
